A study of Homo sapiens with 6 samples.

Results

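The axon guidance ligands and receptors described here are the semaphorins with their plexin and neuropilin receptors, the ephrins with their EPH receptors, the slits with their ROBO receptors, and the netrins with DCC and the UNC5 receptors. They were chosen by gene symbol in the platform annotation, and 68 of 18132 genes with a probe set of their own matched. A probe set is a group of short probes on the array that reads 1 transcript, and each gene is given by its probe set with the highest mean over all arrays. Of the 68, 57 passed the filter on dim probe sets (a mean log2 level of at least 4.94) and were tested. SEMA4G, at a mean of 4.94, was the nearest member above that level, and PLXNC1, at 4.70, the nearest below it. The symbol rule also takes in UNC50, a membrane protein of the nuclear envelope and Golgi, and UNC5CL, a death domain protein of NF-kappaB signalling, neither of which is a guidance receptor.

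The samples were 6 xenograft tumors of CRL-5889, an established human lung squamous carcinoma cell line. In 3 tumors the implanted cells had been transfected with the TRA2B-DNAH5 fusion, which joins a splicing factor gene and an axonemal dynein gene (fusion tumors), and in 3 with the vector (vector tumors). All were grown in nude mice, which lack T cells but keep other leukocytes, vessels and stroma, and were taken 4 weeks after grafting. The labels give neither the promoter of the construct, nor whether the transfected cells were a clone or a pool, nor which mouse or how old a mouse carried each tumor, so p-values measure the spread between these tumors.

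Guidance cues were found as signals that steer growing axons, but the same molecules act in epithelia, vessels and tumors. Secreted class 3 semaphorins mostly act through a neuropilin that binds the ligand and a plexin that signals, and SEMA3E is the member that binds plexin D1 directly. Membrane-bound semaphorins bind plexins without a neuropilin. Ephrins A are held in the membrane by a lipid anchor and ephrins B cross it, and both signal to EPH tyrosine kinases on the neighbouring cell. Slits repel through ROBO receptors, while netrins attract through DCC and repel through UNC5 receptors.

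Median log2 levels of the arrays were 6.34 to 6.39 in fusion tumors and 6.27 to 6.37 in vector tumors. On the leading principal component, which held 42.4% of the variance, vector tumor 1 lay away from all the others. Of 15 genes with a probe set in the list for squamous epithelial cells, 11 passed the filter, among them SOX2, ITGA6, PERP, KRT18 and SFN, while CDH1, EPCAM, DSG3 and DSC3 were below it. The list was not limited to genes particular to squamous cells, so this count does not measure squamous identity. KRT14 and PKP1 passed at low means of 5.70 and 5.62, and the listed KRT6A, KRT17 and TP63 had no probe set of their own. KRT5, a keratin of basal squamous cells, stood at 4.90, 5.16 and 5.13 in fusion tumors and 5.05, 5.09 and 5.41 in vector tumors. The fusion partners stood at 11.59, 11.68 and 11.80 (TRA2B) and 7.23, 7.57 and 7.37 (DNAH5) in fusion tumors, against 11.56, 11.71 and 11.69 and 6.90, 7.79 and 7.50 in vector tumors. Whether these probe sets lie in the part of each gene that the construct holds is not given in the sources used here, so they do not check the labels. The probe sets are for human transcripts, and how far mouse transcripts bind to them was not tested.

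SEMA3E was the member that differed most, and nearly all other members lay close together in the 2 groups. Its level in fusion tumors was 0.429 times that in vector tumors, a log2 fold change (fusion minus vector) of -1.22 that ranked number 2 from the lowest among 13694 genes tested. It missed the threshold of limma, the linear model fitted to every gene, once p was adjusted over all of them by the Benjamini-Hochberg method (adjusted p = 0.329). By limma, 0 of 57 members passed at adjusted p 0.05, where 0.0730% of all genes did (0.0584% higher and 0.0146% lower in fusion tumors). At an unadjusted p below 0.05 there was 1 member, SEMA3E, which was lower (1.75%), where 5.89% of all genes were past it (3.16% higher and 2.73% lower). The median log2 fold change of the 57 members was -0.031, with 24 above 0 (42.1%), beside a median of 0.0020 and 50.8% above 0 over all genes tested.

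The spread of the members was also small. A log2 fold change beyond 0.25 in either direction, a mark set after the values were seen, was found for 3 members (5.26%), SEMA3E, SEMA3A and EFNB1, and for 9.43% of all genes tested. For 51 of the 57 the 95% confidence interval lay within 0.5 of 0 on the log2 scale, so a change beyond that size lies outside their intervals. The interval reached past 0.5 for SEMA3E, SEMA3A, SEMA4C, EFNB1, EPHA7 and NTN1. Fusion and vector values did not overlap for 8 members (14.0%), where 11.7% of all genes tested did not overlap. Of these, 3 were higher in fusion tumors (5.26%, against 5.94% of all genes) and 5 lower (8.77%, against 5.74% of all genes). The 68 genes have 200 probe sets, of which 118 passed the filter. In a fit over all 34500 probe sets past it, 4 of the 118 had an unadjusted limma p below 0.05, 2 of SEMA3E and 1 each of SEMA3C and SEMA4D, where 5.58% of all did. Of 36 members with more than 1 probe set past the filter, 18 had all their probe sets on the same side of 0.

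**Figure D1:**
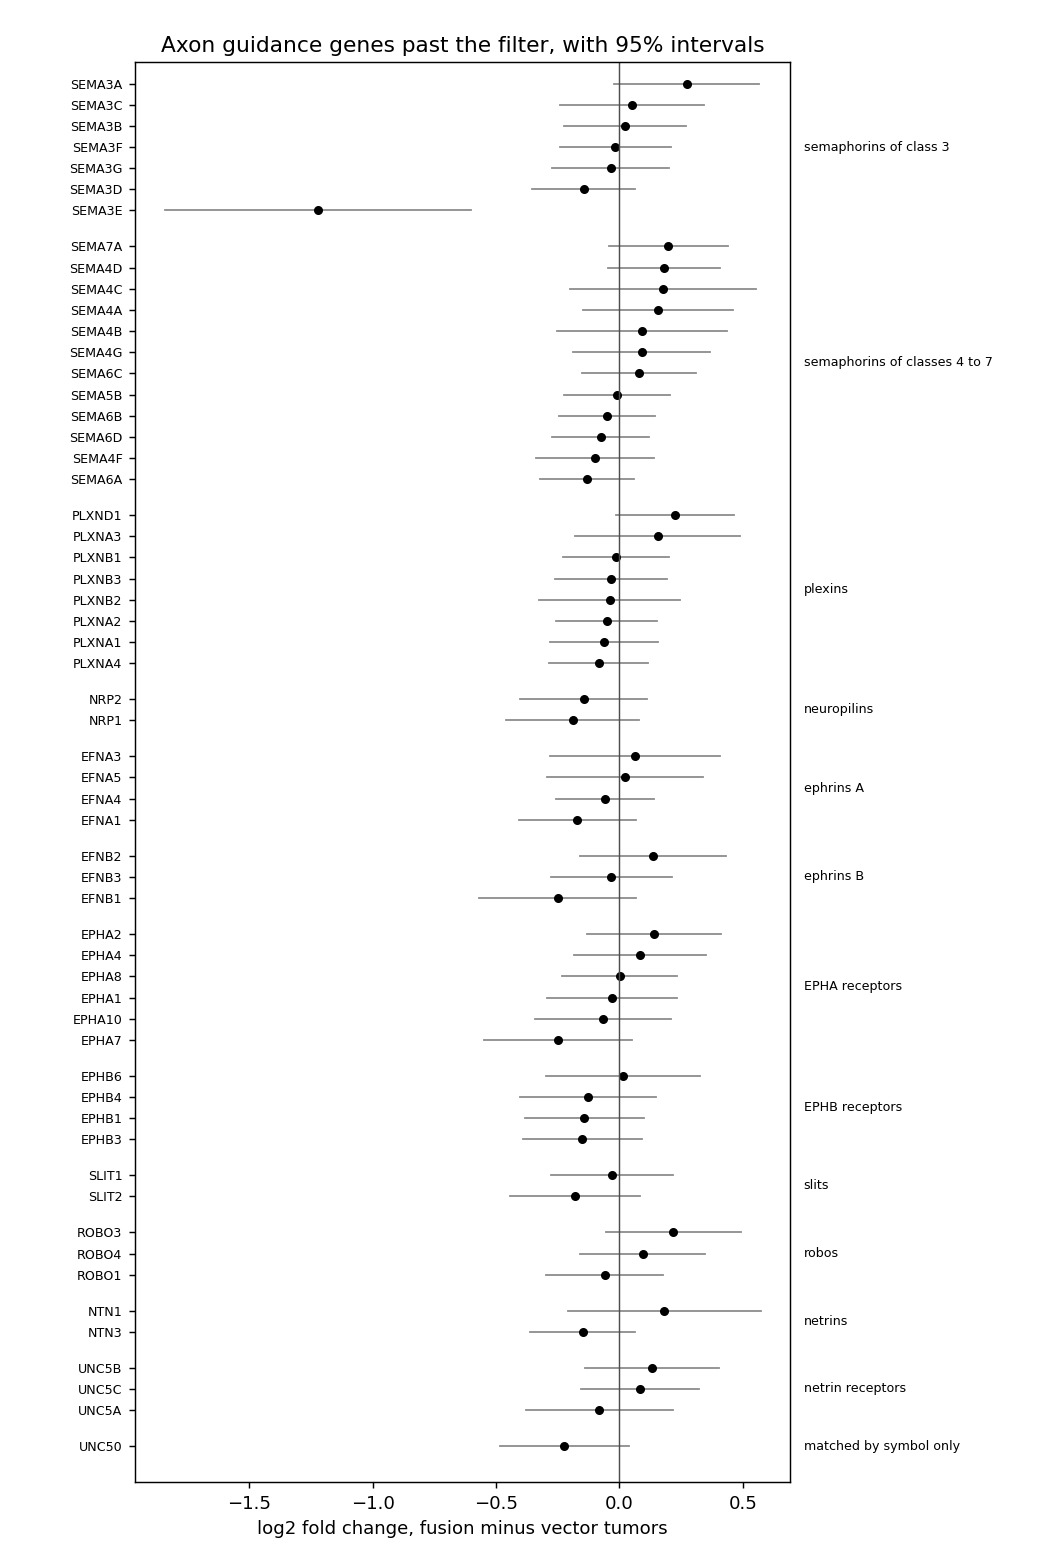
Log2 fold change (x axis, fusion minus vector tumors) of each of the 57 axon guidance genes past the filter, grouped by family, with the point at the estimate and the bar at limma's 95% confidence interval. The interval of SEMA3E lies wholly below 0, and those of the other 56 genes include 0.

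The class 3 semaphorins held both ends of the range. SEMA3E had log2 levels of 6.76, 6.83 and 6.61 in fusion tumors 1 to 3, against 7.27, 8.07 and 8.53 in vector tumors 1 to 3. Every fusion tumor was below every vector tumor, and vector tumor 1 was the nearest to the fusion tumors. Fusion tumors averaged 6.73 ± 0.11 and vector tumors 7.96 ± 0.64 (SD over 3 tumors each), and the log2 fold change of -1.22 had an SE of 0.27 and a 95% confidence interval of -1.84 to -0.60 by limma. The SD of SEMA3E in vector tumors was the highest among the 57 members, followed by PLXNA3 at 0.305. In bulk tumor RNA, fewer cells that make SEMA3E and less SEMA3E RNA per cell cannot be told apart.

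The probe sets of SEMA3E differed in how clearly they showed this. Its second probe set by level stood at 4.55, 5.04 and 4.74 in fusion tumors and 4.68, 6.32 and 6.88 in vector tumors, a difference of -1.18 with an unadjusted limma p of 0.0380 in a fit over all probe sets. Here vector tumor 1 lay among the fusion tumors and the groups overlapped. The third stood at 5.23, 4.85 and 4.64 in fusion tumors and 5.02, 4.91 and 5.73 in vector tumors, with a difference of -0.31 and a p of 0.213. Both had means near the filter level. The difference of the second was close to that of the brightest probe set (-1.22), but its vector tumors spread more widely (SD 1.15). Whether a background that is not known made the difference of the third smaller was not tested.

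SEMA3A, the collapsin that repels axons through neuropilin 1, stood at 11.25, 11.11 and 11.06 in fusion tumors, against 10.61, 10.98 and 11.02 in vector tumors. The groups did not overlap, though fusion tumor 3 and vector tumor 3 were close, and vector tumor 1 was the lowest. The log2 fold change was 0.27 with an SE of 0.13 (limma adjusted p = 0.892), and without vector tumor 1 it was 0.14. A less bright probe set of SEMA3A gave 0.28. SEMA3C, which acts through both neuropilins, stood at 11.17, 11.37 and 10.95 in fusion tumors and 11.00, 11.09 and 11.24 in vector tumors, with the groups overlapping and a log2 fold change of 0.05 (SE 0.13). Its sign turned without fusion tumor 2 (-0.05) or vector tumor 1 (-0.0057). The 6 SEMA3C probe sets all lay above 0, from 0.05 to 0.45, and the third by level had an unadjusted p of 0.0228 (difference 0.39, adjusted p = 0.816 by limma over all probe sets).

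The other class 3 genes differed by little. SEMA3D, PLXNA3 and NTN1 are given by tumor although the naming rule did not pick them, and were chosen after their values were seen. SEMA3D, a secreted cue of vessel and heart development, stood at 5.20, 5.33 and 5.27 in fusion tumors and 5.39, 5.35 and 5.49 in vector tumors, with groups that did not overlap and a log2 fold change of -0.15 with an SE of 0.091 (limma adjusted p = 0.957). SEMA3B and SEMA3F, candidate tumor suppressors in lung cancer, and SEMA3G had log2 fold changes of 0.02, -0.02 and -0.04.

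**Figure D2:**
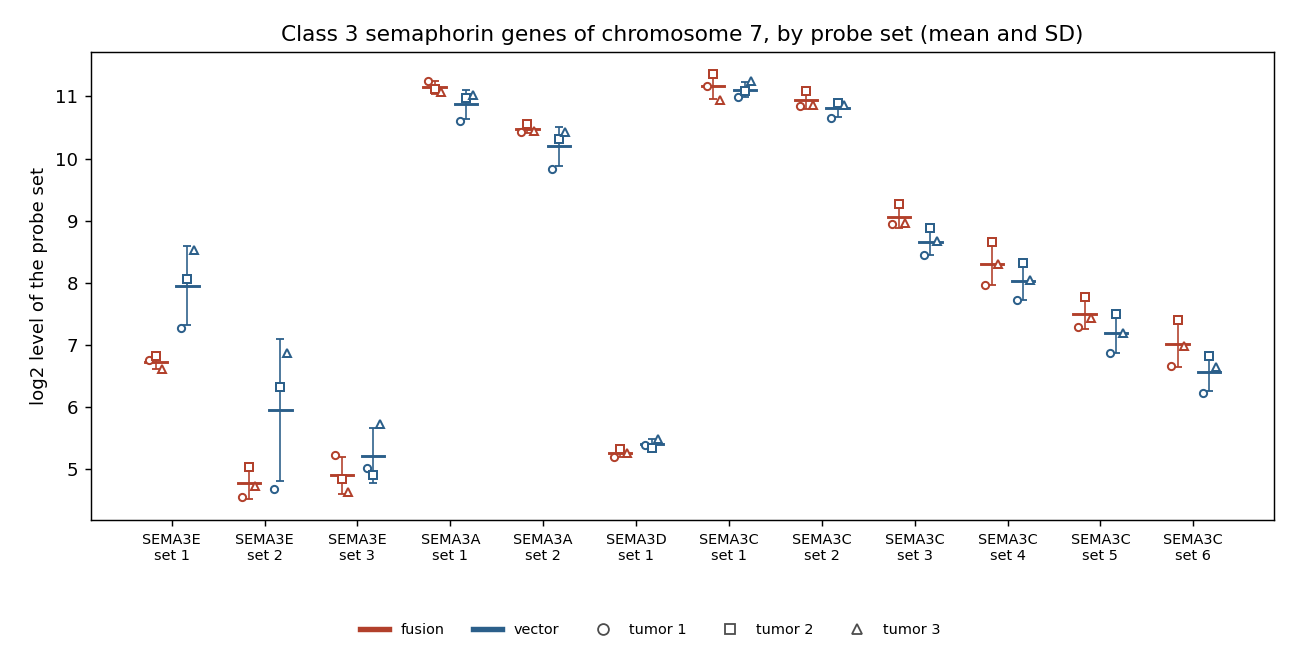
Log2 level (y axis) of every probe set past the filter of the class 3 semaphorin genes SEMA3E, SEMA3A, SEMA3D and SEMA3C in each tumor, fusion left of vector, with the mean as a line and the SD as a bar (n = 3 each). Levels are compared within a probe set only. The brightest SEMA3E probe set reads 6.61 to 6.83 in fusion tumors and 7.27 to 8.53 in vector tumors, while the SEMA3A and SEMA3C sets lie slightly higher in fusion tumors on average.

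These 4 genes lie near each other on chromosome 7, where the RefSeq order of protein-coding genes runs SEMA3C, HGF, CACNA2D1, PCLO, SEMA3E, SEMA3A, SEMA3D. The neighbours were looked up after the value of SEMA3E was seen. PCLO, a presynaptic scaffold gene next to SEMA3E, stood at 8.10, 8.27 and 8.19 in fusion tumors and 7.33, 8.57 and 8.39 in vector tumors. Its log2 fold change was 0.09 (SE 0.28), and -0.30 without vector tumor 1, the lowest. In that setting every fusion tumor lay below the remaining vector tumors, with a limma unadjusted p of 0.0167 and an adjusted p of 0.399. HGF and CACNA2D1 were below the filter. Within each tumor the log2 difference between SEMA3E and SEMA3A differed by -1.49 between fusion and vector tumors (fusion minus vector). Both genes' groups were apart before this difference was taken, so it is a description.

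The promoter of SEMA3E and that of SEMA3C are shown because both genes lie on the same strand of the same stretch of chromosome 7, and the log2 fold change was -1.22 for SEMA3E and 0.05 for SEMA3C. Both are the 250 bases before the gene start in RefSeq (GRCh38.p14), read 5′ to 3′ on the minus strand, chr7:83649140-83649389 for SEMA3E and chr7:80922390-80922639 for SEMA3C. Capitals mark a match to any of 4 motifs searched on both strands. These were TATAAA for the TATA box and, for the GC box, GGGCGG. The AP-1 site was searched as TGANTCA and the E-box as CACGTG.
SEMA3E: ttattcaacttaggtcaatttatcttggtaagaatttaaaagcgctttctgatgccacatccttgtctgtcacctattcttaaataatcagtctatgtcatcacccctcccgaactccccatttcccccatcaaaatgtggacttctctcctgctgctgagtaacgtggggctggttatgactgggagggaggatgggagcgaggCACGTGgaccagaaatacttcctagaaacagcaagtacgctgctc
SEMA3C: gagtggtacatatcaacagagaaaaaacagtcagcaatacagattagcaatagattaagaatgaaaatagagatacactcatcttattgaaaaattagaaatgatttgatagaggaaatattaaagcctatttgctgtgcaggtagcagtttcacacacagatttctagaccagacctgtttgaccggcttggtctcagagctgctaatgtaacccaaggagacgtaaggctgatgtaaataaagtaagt
The SEMA3E window held 1 E-box, which began 45 bases before the start and overlapped no other motif, and none of the other 3 motifs. The SEMA3C window held no match to any of the 4. Its GC content was 36.4% and that of SEMA3E 46.4%, against a median of 66.0% over the 58 members matched in the promoter table and 62.4% over 14425 genes with a probe set. An E-box was found in 4 of the 58 members (6.90%) and in 7.78% of those 14425 promoters, and a GC box in 45 (77.6%) against 56.9%. A TATA box was found in 1 member (1.72%, against 8.92%) and an AP-1 site in 0 of 58 (against 5.07%).

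Membrane-bound semaphorins leaned neither way. Of 13 genes of classes 4 to 7, SEMA5A was below the filter, and the 12 tested had log2 fold changes from -0.13 to 0.20 with 7 above 0 and a median of 0.085. SEMA4B stood at 11.32, 11.05 and 11.31 in fusion tumors and 10.81, 11.29 and 11.31 in vector tumors. Only vector tumor 1 was low, and the log2 fold change of 0.09 (SE 0.15) became -0.07 without it. SEMA4D, the ligand of plexin B1, stood at 7.41, 7.45 and 7.18 in fusion tumors, against 7.18, 7.15 and 7.17 in vector tumors. The groups did not overlap, but fusion tumor 3 and vector tumor 1 were level to the printed decimal. A dimmer SEMA4D probe set gave the opposite sign, at 5.42, 5.53 and 5.65 in fusion tumors and 5.93, 5.70 and 5.81 in vector tumors. Its groups did not overlap either (-0.28, limma unadjusted p = 0.0307 and adjusted p = 0.830 over all probe sets). In that same fit the brighter probe set had an unadjusted p of 0.117. SEMA7A, a lipid-anchored semaphorin that binds plexin C1 and integrins, stood at 7.50, 7.62 and 7.35 in fusion tumors and 7.38, 7.31 and 7.19 in vector tumors, with overlap between the groups (0.20 with an SE of 0.11, limma adjusted p = 0.934). SEMA6A, named after its values were seen because its groups did not overlap, had 5.32, 5.34 and 5.35 in fusion tumors, against 5.50, 5.49 and 5.42 in vector tumors (-0.13, SE 0.083). The others were SEMA4C (0.18), SEMA4A (0.15), SEMA4G (0.09), SEMA6C (0.08), SEMA5B (-0.01), SEMA6B (-0.05), SEMA6D (-0.08) and SEMA4F (-0.10).

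Among the 8 plexins and 2 neuropilins tested, plexin D1 was the one whose groups did not overlap, where 11.7% of all genes tested did not overlap. PLXND1, the receptor that SEMA3E binds directly, stood at 7.81, 7.66 and 7.67 in fusion tumors and 7.57, 7.57 and 7.33 in vector tumors. All fusion tumors were higher, by a log2 fold change of 0.23 with an SE of 0.10 (limma adjusted p = 0.882), opposite in sign to that of SEMA3E. A link between the 2 genes was not tested. PLXND1 ranked number 942 by p among all genes tested, and the probe set used is of a type that other transcripts can share. Its other probe set overlapped between groups, with a difference of 0.12. Without vector tumor 3, the lowest, the log2 fold change of the probe set used was 0.14. PLXNB2, the receptor for class 4 semaphorins, stood at 9.49, 9.57 and 9.65 in fusion tumors and 9.36, 9.68 and 9.79 in vector tumors. Its log2 fold change of -0.04 (SE 0.12) became 0.05 without vector tumor 3. The other 6 plexins tested lay between -0.08 (PLXNA4) and 0.16 (PLXNA3), and PLXNC1 was below the filter. PLXNA3 stood at 7.95, 7.91 and 7.94 in fusion tumors and 7.43, 7.90 and 8.01 in vector tumors, so that vector tumor 1 alone was low.

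Both neuropilins were dim. NRP1, the binding receptor for SEMA3A, stood at 5.23, 5.06 and 4.88 in fusion tumors and 5.30, 5.11 and 5.33 in vector tumors, close to the filter level of 4.94, and its other 5 probe sets were below that level. NRP2 stood at 5.45, 5.65 and 5.61 in fusion tumors and 5.89, 5.57 and 5.69 in vector tumors. The groups overlapped for both, with log2 fold changes of -0.19 (SE 0.12) for NRP1 and -0.15 (SE 0.11) for NRP2. A change in the neuropilins was not detected, and the values moved to -0.10 for NRP1 without fusion tumor 3 and to -0.06 for NRP2 without vector tumor 1.

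Of the ephrins and EPH receptors, 6 EPHA and 4 EPHB receptors, 4 ephrins A and 3 ephrins B were tested. An unadjusted limma p below 0.05 was found for 0 of them, where 5.89% of all genes were past it. With so few genes, 0 cannot be told apart from that share. EFNA5 stood at 11.31, 10.97 and 10.81 in fusion tumors and 10.89, 11.02 and 11.11 in vector tumors. The log2 fold change of 0.02 (SE 0.14) became -0.12 without fusion tumor 1 and -0.03 without vector tumor 1. EFNA1, a ligand of EPHA2, stood at 8.66, 8.70 and 8.70 in fusion tumors and 8.98, 8.92 and 8.68 in vector tumors, where vector tumor 3 lay among the fusion tumors (-0.17, SE 0.10, adjusted p = 0.956 by limma). EPHA2 itself stood at 9.38, 9.76 and 9.65 in fusion tumors and 9.52, 9.51 and 9.35 in vector tumors, also overlapping (0.14, SE 0.12). EFNA3 and EFNA4 had log2 fold changes of 0.06 and -0.06, and EFNA2 was below the filter.

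Of the ephrins that cross the membrane, EFNB2, the ligand of EPHB4, stood at 6.26, 6.06 and 6.12 in fusion tumors and 6.12, 5.75 and 6.16 in vector tumors (0.14, SE 0.13). EPHB4 stood at 9.04, 8.67 and 8.89 in fusion tumors and 9.13, 8.98 and 8.88 in vector tumors (-0.13, SE 0.12), with 5 probe sets from -0.13 to 0.18. Neither gene separated the groups. EFNB1 stood at 5.79, 5.67 and 5.63 in fusion tumors and 6.26, 5.79 and 5.79 in vector tumors, where vector tumor 1 was the high one. Its log2 fold change of -0.25 (SE 0.14) became -0.09 without vector tumor 1. EPHA7, a receptor of ephrins A, stood at 5.09, 4.70 and 5.10 in fusion tumors and 5.31, 5.08 and 5.25 in vector tumors (-0.25, SE 0.13, adjusted p = 0.929 by limma). Fusion tumor 2 was the lowest, and without it the difference was -0.12. EFNB3, EPHA1, EPHA4, EPHA8, EPHA10, EPHB1, EPHB3 and EPHB6 lay between -0.15 and 0.08, and EPHA3, EPHA5 and EPHA6 were below the filter. EPHA10 and EPHB6 are receptors that lack kinase activity.

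Slits, robos, netrins and their receptors also stayed near 0. SLIT2, a ligand of ROBO1, stood at 5.80, 5.77 and 5.79 in fusion tumors, against 5.88, 5.82 and 6.20 in vector tumors. The groups did not overlap, the fusion tumors were nearly level, and vector tumor 3 was the high one (-0.18 with an SE of 0.12, limma adjusted p = 0.962, and -0.06 without vector tumor 3). ROBO1 stood at 9.77, 9.59 and 9.49 in fusion tumors and 9.71, 9.73 and 9.60 in vector tumors. Its log2 fold change of -0.06 (SE 0.10) became 0.0042 without fusion tumor 3. ROBO3, a regulator of midline crossing, stood at 8.76, 8.99 and 8.59 in fusion tumors and 8.65, 8.48 and 8.54 in vector tumors (0.22, SE 0.12, and 0.11 without fusion tumor 2), but its 4 probe sets ran from -0.07 to 0.22 and the one used is of a type that other transcripts can share. SLIT1 and ROBO4, a robo of endothelium, had -0.03 and 0.09, and SLIT3 and ROBO2 were below the filter.

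NTN3 stood at 6.80, 6.74 and 6.88 in fusion tumors and 7.05, 6.87 and 6.95 in vector tumors, with fusion tumor 3 just above vector tumor 2 (-0.15, SE 0.093). NTN1, the netrin that attracts through DCC, had the highest SD among the members in fusion tumors (0.349), at 6.10, 5.83 and 5.40, against 5.75, 5.47 and 5.57 in vector tumors (0.18, SE 0.17). UNC5B, a netrin receptor that repels, stood at 7.05, 7.23 and 7.06 in fusion tumors and 6.76, 7.08 and 7.10 in vector tumors, with vector tumor 1 low (0.13, SE 0.12, and 0.02 without vector tumor 1). UNC5A and UNC5C had -0.08 and 0.08, while UNC5D and DCC, at means of 3.91 and 3.59, were below the filter. UNC50, which shares only the start of its symbol with these receptors, stood at 9.69, 10.07 and 9.95 in fusion tumors and 10.20, 10.08 and 10.11 in vector tumors, with the groups just apart between fusion tumor 2 and vector tumor 2 (-0.22, SE 0.11, adjusted p = 0.917 by limma, and -0.12 without fusion tumor 1), and UNC5CL was below the filter.

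Exact two-sided permutation tests were run for the 23 members described tumor by tumor under the naming rule. The p was 0.1, the smallest possible, for 6 of them (SEMA3E, SEMA3A, SEMA4D, PLXND1, SLIT2 and UNC50). After Benjamini-Hochberg adjustment over the 23 it was 0.383. That smallest p lies above the threshold used here, so no gene could pass and no conclusion is drawn from this test. The naming rule picks members partly by p and change in these same tumors, so 6 of 23 is a selected count. SEMA3D and SEMA6A, outside the 23, also had an exact p of 0.1. Groups that do not overlap, which give this p, were found for 11.7% of all genes tested.

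**Figure D3:**
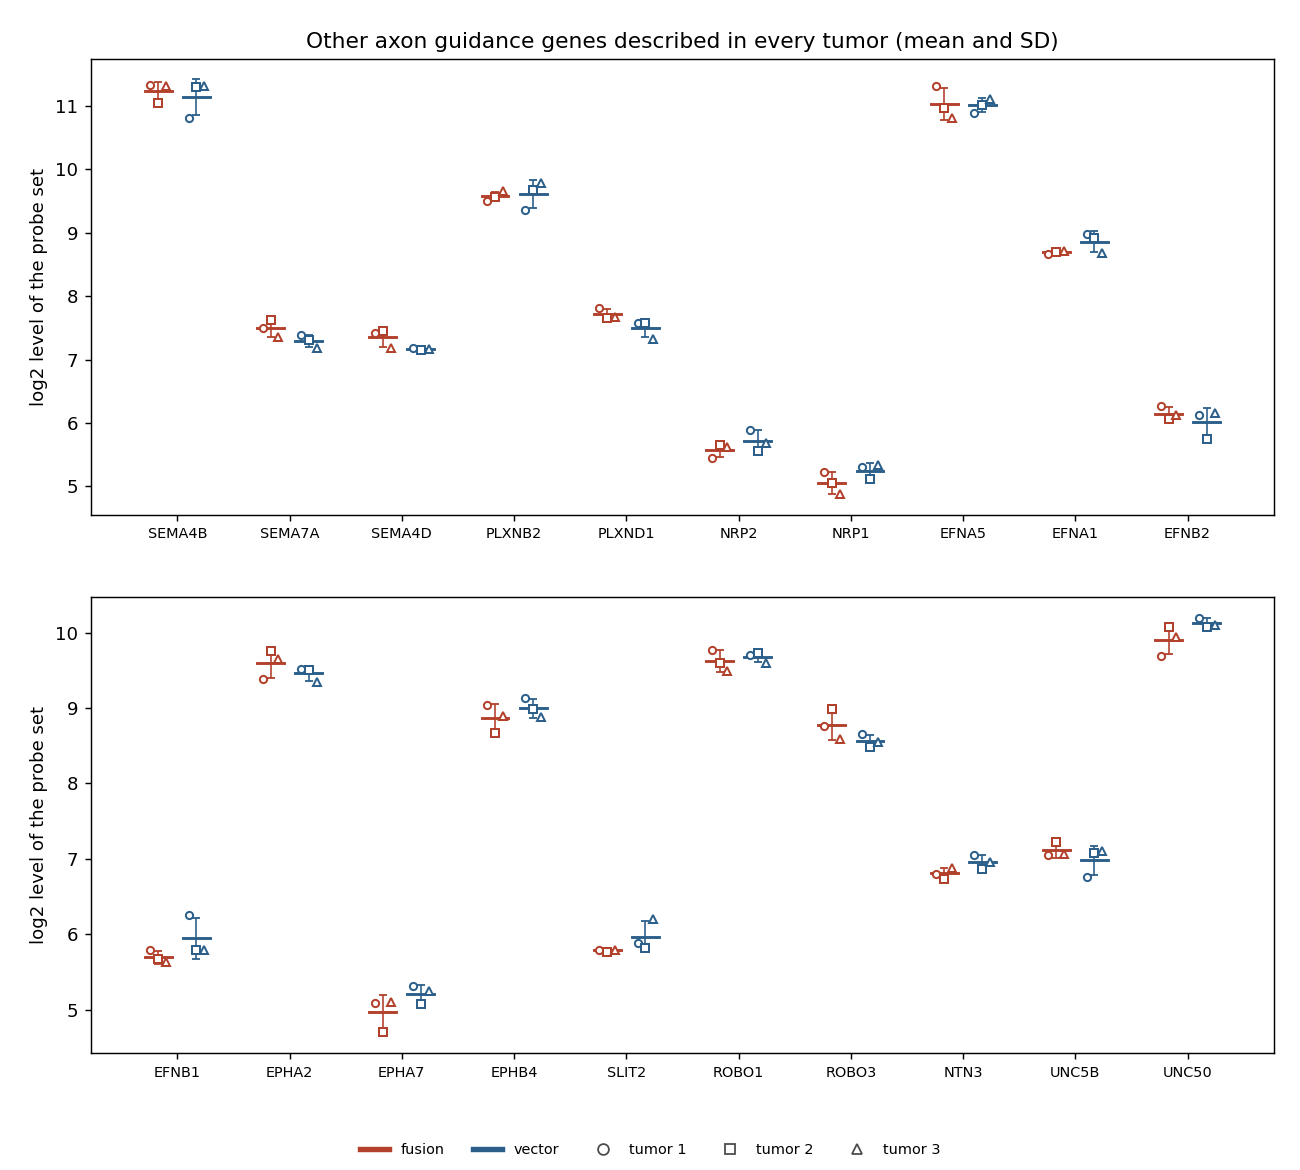
Log2 level (y axis) of the other 20 axon guidance genes described tumor by tumor under the naming rule, fusion left of vector, with the mean as a line and the SD as a bar (n = 3 each). The 2 groups lie close for each gene, and vector tumor 1 is the lowest point for SEMA4B, PLXNB2 and UNC5B and the highest for NRP2, EFNA1, EFNB1, EPHA7, EPHB4, NTN3 and UNC50.

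Tumors differed in how often they held the extreme value. Vector tumor 1 was the highest of the 6 for 15 and the lowest for 14 of the 57 members (26.3% and 24.6%, against 27.2% and 28.8% of all genes tested). Vector tumor 3 was the highest for 16 members (28.1%) and the lowest for 3 (5.26%), where over all genes tested these shares were 15.4% and 15.2%. Fusion tumor 3 was the highest for 3 members (5.26%, against 11.6% of all genes) and the lowest for 11 (19.3%, against 10.7%). These counts describe the tumors and were not tested.

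Genes that carry guidance signals inside the cell, or act beside these families, included some with larger log2 fold changes than any member but SEMA3E. TIAM1, at 1.42, also exceeded SEMA3E, at -1.22, in size. Of 80 such genes listed, 62 were tested, and by limma 0 passed at adjusted p 0.05 while 5 had an unadjusted p below 0.05 (8.06%, where 5.89% of all genes did), 3 higher and 2 lower in fusion tumors. The median log2 fold change was 0.028, with 39 above 0 (62.9%, against 50.8% of all genes). Fusion and vector values did not overlap for 10 (16.1%, against 11.7% of all genes).

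TIAM1, an exchange factor that activates Rac and works downstream of ephrins, stood at 9.23, 8.19 and 8.62 in fusion tumors, against 7.13, 7.44 and 7.23 in vector tumors. Every fusion tumor was higher, with a log2 fold change of 1.42 and an SE of 0.23 (limma adjusted p = 0.127), number 5 from the highest among all genes tested. The probe set used is of a type that other transcripts can share. The other TIAM1 probe set was below the filter, with a difference of 0.19, and the mean of both gave 0.80. CRMP1, a mediator of the response to SEMA3A, stood at 5.99, 6.58 and 6.28 in fusion tumors and 7.36, 7.02 and 6.93 in vector tumors. Every fusion tumor was lower (-0.82, SE 0.17, adjusted p = 0.265 by limma), and all 4 CRMP1 probe sets pointed the same way, from -0.93 to -0.57.

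SRGAP2, which acts in the slit and ROBO pathway, stood at 7.98, 7.81 and 7.76 in fusion tumors and 8.17, 8.50 and 8.30 in vector tumors (-0.47, SE 0.12, adjusted p = 0.376 by limma). Another SRGAP2 probe set of nearly the same level gave -0.09, the mean of all probe sets gave -0.16, and near-identical copies of the gene exist, so the assignment is uncertain. FLRT2, a membrane protein that binds UNC5 receptors, stood at 8.33, 7.74 and 7.85 in fusion tumors and 7.40, 7.68 and 7.04 in vector tumors (0.60, SE 0.20, adjusted p = 0.656 by limma). The FLRT2 probe set used is also of a type that other transcripts can share. The other 2 FLRT2 probe sets were below the filter, and the mean of all gave 0.35. RGMB, a repulsive guidance molecule and BMP co-receptor, was named after its values were seen. It stood at 9.86, 8.78 and 9.05 in fusion tumors and 8.59, 8.72 and 8.39 in vector tumors (0.66, SE 0.25, adjusted p = 0.730 by limma), with a difference of 0.35 without fusion tumor 1, the highest. The other RGMB probe set stood at 8.47, 8.04 and 8.37 in fusion tumors and 7.87, 7.69 and 7.56 in vector tumors. Its groups did not overlap either, with a difference of 0.59 (limma adjusted p = 0.442 over all probe sets). The mean of both RGMB probe sets gave 0.62.

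**Figure D4:**
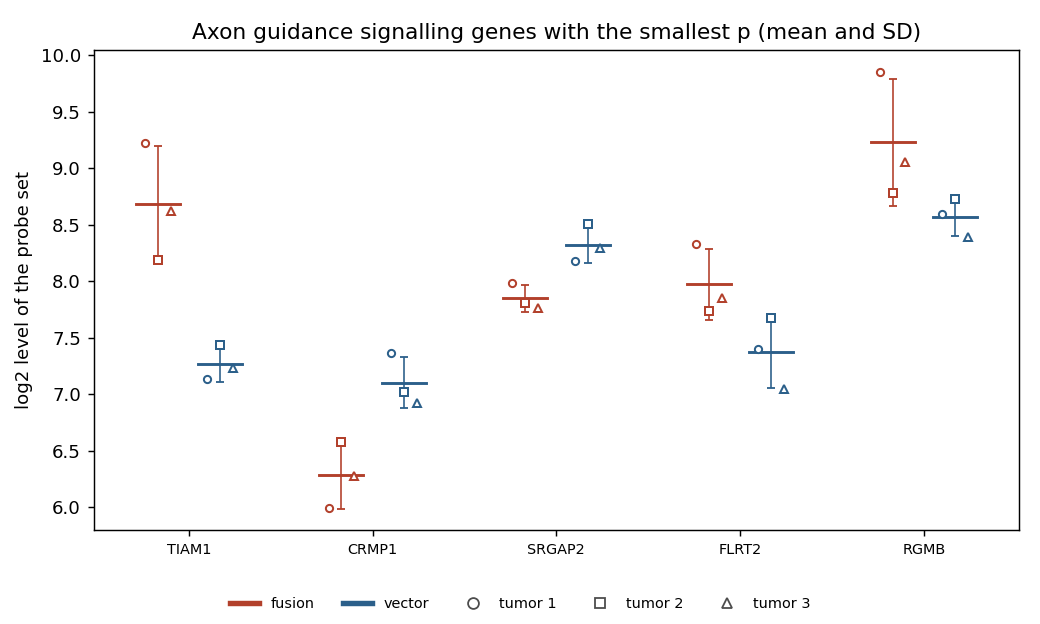
Log2 level (y axis) of the 5 axon guidance signalling genes with an unadjusted p below 0.05 in each tumor, fusion left of vector, with the mean as a line and the SD as a bar (n = 3 each). TIAM1, FLRT2 and RGMB are higher and CRMP1 and SRGAP2 lower in all fusion tumors, and 0 of the 5 passed after adjustment over all genes.

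The SEMA3E difference depended on vector tumor 1 for its call and not for its sign. Without vector tumor 1 the log2 fold change was -1.57 (SE 0.14) and SEMA3E passed (adjusted p = 0.00841 by limma), in a fit that called 37 genes. With array weights it was -1.48 (adjusted p = 0.00440), in a fit that called 140 genes. In the other 14 settings it lay between -1.27 and -0.91 and did not pass. Its unadjusted limma p ran from 3.92e-06 to 0.0291 over the 16 alternative settings.

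**Figure D5:**
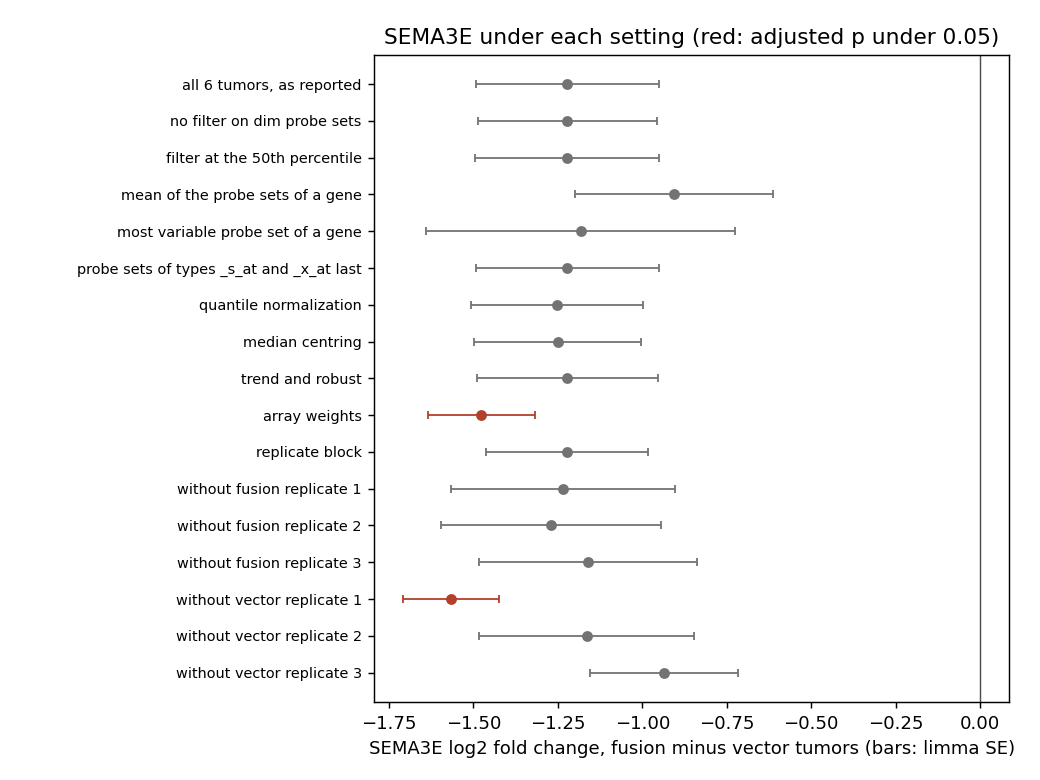
SEMA3E log2 fold change (x axis, fusion minus vector tumors) as reported and under each alternative setting, with limma's SE as bars. All values are below 0, and the 2 in red, array weights and without vector replicate 1, have an adjusted p below 0.05.

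Lists of marker genes were read for cell types that a xenograft can hold, and for squamous cells. Host cells are mouse cells and the probe sets are for human transcripts, so the lists do not measure how many such cells a tumor held. Whether the values come from the tumor cells themselves was not tested. In the neuron and Schwann cell list, 10 of 12 genes had a probe set and 6 passed the filter, with SYN1, NEFL, NEFM and S100B below it, and the mean log2 level of the list was 6.43 to 6.53 in fusion tumors and 6.56 to 6.62 in vector tumors. MAP2, a neuronal microtubule protein, was the 1 gene of that list with an unadjusted p below 0.05, at 7.59, 7.93 and 7.58 in fusion tumors and 8.29, 8.99 and 9.26 in vector tumors (-1.15, SE 0.23, adjusted p = 0.254 by limma, and 0.0104 without vector tumor 1). The other tested genes of that list had log2 fold changes from -0.06 (RBFOX3) to 0.01 (SOX10), so its lower mean in fusion tumors rests mainly on MAP2. MAP2 ordered the vector tumors as SEMA3E did. Fibroblast markers had a mean level of 6.20 to 6.29 in fusion tumors and 5.88 to 6.07 in vector tumors, with 4 of 8 tested higher at an unadjusted p below 0.05, where 3.16% of all genes were, and DCN and LUM below the filter. Endothelial markers had 5.67 to 5.74 in fusion tumors and 5.62 to 5.72 in vector tumors, with TEK, CLDN5 and EMCN below the filter. Adipocyte markers had 5.59 to 5.68 in fusion tumors and 5.78 to 5.91 in vector tumors, with LEP and FABP4 below the filter and 3 of 6 tested (PPARG, PLIN1 and CIDEC) lower at an unadjusted p below 0.05, where 2.73% of all genes were. Leukocyte markers had 5.51 to 5.55 in fusion tumors and 5.40 to 5.52 in vector tumors, with PTPRC, CD14 and CD163 below the filter and 1 of 7 tested, CD68, higher (0.80, SE 0.12, adjusted p = 0.112 by limma). Skeletal muscle markers had 5.37 to 6.35 in fusion tumors and 5.56 to 6.34 in vector tumors, with MYH1, MYH2 and MYL1 below the filter, and squamous markers 6.42 to 6.51 in fusion tumors and 6.43 to 6.54 in vector tumors. That last list held 1 of 11 tested genes higher and 1 lower at an unadjusted p below 0.05. ITGA6, a laminin receptor subunit, stood at 12.04, 12.05 and 11.98 in fusion tumors and 10.95, 11.43 and 11.30 in vector tumors (0.80, SE 0.13, adjusted p = 0.127 by limma). SOX2, a transcription factor of squamous cells, stood at 8.70, 8.92 and 8.85 in fusion tumors and 9.24, 9.62 and 10.10 in vector tumors (-0.83, SE 0.19, adjusted p = 0.369 by limma), with the vector tumors in the same order as for SEMA3E. How many of all genes share that order was not counted, so for MAP2 and SOX2 it is a description only. The part of these cell types in the values of SEMA3E, PLXND1 and TIAM1 was not tested.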

How the data were processed

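Total RNA of 6 tumors was hybridised to 1 Affymetrix array each, per the labels. The authors deposited a table of log2 values per probe set. That they are log2 follows from their range. How they were normalized or summarised is not stated in the labels. No detection call was used, so a dim probe set may hold background alone. The number of arrays limits the precision. Probe sets naming exactly 1 gene in the platform annotation were kept (44988 of 49293), the one with the highest mean was used per gene (18132 genes), and genes with a mean below the 30th percentile (4.94) were left out, which left 13694. The main test was limma 3.58.1 under R 4.3.3, with lmFit, eBayes and group as the sole term, and p-values were two-sided and adjusted by Benjamini-Hochberg over all 13694 genes. The code was tested on simulated data. SDs are over 3 tumors. The members and lists were chosen with earlier results of these data known. Values in every tumor are given for members past adjusted p 0.05, the 12 with the smallest p, the 5 with the largest change and the highest of each family. From the signalling list the 4 with the smallest p are named. Alternatives were 16 settings of filter, probe set, normalization, spread, weights, replicate block and tumors left out. The fit over all probe sets past the filter (34500) was added after seeing the data. Promoters were read with Python 3.11.15 and pandas 2.3.3.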

Additional observations from a re-analysis of the deposited data

How the results depend on the processing

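Across 16 alternative settings, the count of members past the threshold stayed at 0 except for SEMA3E with array weights (1) and without vector tumor 1 (range 0 to 1 when each tumor was left out). The count of members at an unadjusted p below 0.05 was 2 with trend and robust fitting (SEMA3E, SEMA3A; 3.51%, against 5.91% of all genes), 4 with array weights (SEMA3E, SEMA4A, EPHA4, PLXND1; 7.02%, where 13.5% of all genes were in that fit), 2 with the replicate block (SEMA3E, EPHA7; 3.51%, against 6.65% of all genes) and 1 to 4 with a tumor left out (1.75% to 7.02%, against 3.93% to 9.19% of all genes), and SEMA3E was among them in every setting. Signalling genes past the threshold numbered 3 with array weights (TIAM1 at 1.26, CRMP1 at -0.71, SRGAP2 at -0.62) and 0 otherwise. Over all genes, 1 passed with the filter at the 50th percentile, 16 with the mean of probe sets, 6 with the most variable probe set, 140 with array weights, 8 with the replicate block and 0 to 37 with a tumor left out. SEMA3E ran from -1.57 to -0.94, with an adjusted p from 0.00841 to 1.00, when each tumor was left out, and MAP2 was -1.36 with array weights. Signs turned for EPHB4 (0.020) and SEMA4D (-0.081) with the mean of probe sets, for EPHB4 (0.18), EFNB2 (-0.036) and ROBO3 (-0.0015) with the most variable probe set, for ROBO3 (-0.034) with shared probe set types last, for EFNA5 (-0.0054) with median centring, and for EFNA5 (-0.12), SEMA3C (-0.055), SEMA4B (-0.014) and PCLO (-0.24) with array weights. With a tumor left out, ranges were -0.12 to 0.13 for EFNA5, -0.30 to 0.32 for PCLO, -0.16 to 0.050 for PLXNB2, -0.14 to 0.0042 for ROBO1, -0.051 to 0.16 for SEMA3C, -0.071 to 0.18 for SEMA4B. The cause of these shifts was not tested. Equal replicate numbers are not stated to pair tumors. Deviations of same-numbered tumors correlated at 0.13, 0.17 and 0.043, each tumor correlated best with its own number, and the replicate block gave SEMA3E -1.22 (limma adjusted p = 0.281), ending or adding no call among the members. Dim probe sets, such as those of the neuropilins, limit what could be seen.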
